A study of Mus musculus with 12 samples.

Results

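A set of 10 genes linked to self-renewal of spermatogonial stem cells was looked up by symbol: Gfra1, Ret, Zbtb16, Etv5, Bcl6b, Id4, Nanos2, Sall4, Lhx1 and Foxo1. Of these 10 genes, 8 have a row among the 17995 genes of the expression table. Nanos2 and Sall4 have no row in it, by symbol or by gene identifier, and were not analysed here. The rule uses the names alone and no measured value. The RNA came from 2 mouse lines labelled with the strain IRC (written ICR for the mice in the methods), the spermatogonial stem cell line C18-4 and the Sertoli cell line TM4. In each line, 3 libraries were made from cells given shNC, a control short hairpin RNA, and 3 from cells given shM5. shM5 is a mixture of 3 hairpins against the mRNA of the muscarinic acetylcholine receptor M5, and per the methods the transfected cells were kept as stable lines. The 12 libraries therefore form 4 groups of 3, C18-4 shNC, C18-4 shM5, TM4 shNC and TM4 shM5, and every group carries a hairpin construct. Cultured lines grow without the neighbouring cells of the seminiferous tubule, and nothing in the labels says that replicates were separate cultures, so the p-values given here measure only the spread between these libraries.

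Spermatogonial stem cells divide to renew themselves and to supply differentiating daughters. Glial cell line-derived neurotrophic factor (GDNF), secreted by Sertoli and peritubular myoid cells, sustains them by binding the co-receptor GFRA1, which then activates the receptor tyrosine kinase RET. SRC-family and PI3K-AKT signals downstream of RET raise a group of transcription regulators that includes Etv5, Bcl6b, Id4 and Lhx1. ZBTB16, SALL4, NANOS2 and FOXO1 also hold the stem cell state.

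The stretches just upstream of the annotated start of 4 of the genes are shown because these genes went in opposite directions between the lines, Id4 and Lhx1 being higher in C18-4 cells and Etv5 and Foxo1 higher in TM4 cells. They come from RefSeq on the mouse build GRCm38.p6, in which 6 of the 10 genes had an entry (Gfra1, Etv5, Id4, Nanos2, Lhx1 and Foxo1). Each run holds the 150 bases before the start, read 5′ to 3′ along the gene's own strand, and capitals mark the GC box GGGCGG or its complement on the other strand. The Id4 run is chr13:48260966-48261115 on the plus strand, the Lhx1 run chr11:84525535-84525684 on the minus strand, the Etv5 run chr16:22439571-22439720 on the minus strand and the Foxo1 run chr3:52268187-52268336 on the plus strand. Etv5 has another RefSeq start as well, and its upstream run is not shown.
Id4: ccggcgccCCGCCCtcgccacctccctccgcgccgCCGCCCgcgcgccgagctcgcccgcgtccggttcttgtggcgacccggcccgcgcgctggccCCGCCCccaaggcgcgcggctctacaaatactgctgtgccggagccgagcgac
Lhx1: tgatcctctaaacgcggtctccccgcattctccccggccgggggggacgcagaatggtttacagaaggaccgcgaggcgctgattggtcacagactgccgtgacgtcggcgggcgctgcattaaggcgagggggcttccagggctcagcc
Etv5: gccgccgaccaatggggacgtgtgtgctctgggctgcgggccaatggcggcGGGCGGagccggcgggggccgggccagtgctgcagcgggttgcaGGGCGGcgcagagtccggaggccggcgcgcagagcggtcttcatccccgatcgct
Foxo1: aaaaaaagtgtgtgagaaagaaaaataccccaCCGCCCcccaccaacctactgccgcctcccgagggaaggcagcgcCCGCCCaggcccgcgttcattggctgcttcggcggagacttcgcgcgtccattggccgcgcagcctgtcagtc
The Id4 run holds 3 GC boxes, the Etv5 and Foxo1 runs 2 each, and the Lhx1 run 0. Over the 250 bases before the start, CG dinucleotides numbered 35 for Id4, 27 for Etv5, 26 for Lhx1, 20 for Foxo1, 10 for Gfra1 and 0 for Nanos2, against a median of 6.0 over 32851 RefSeq promoters. The GC box was found in 32.7% of all these promoters on either strand. The letters GTAAACA, which forkhead factors such as FOXO1 can bind, occurred before the start shown for Etv5 alone of the 6 genes, 183 bases upstream, and in 3.17% of all promoters. E-box letters (CANNTG), which bHLH proteins bind, were found 3 times for Gfra1, 2 times for Etv5, 1 time for Foxo1 and 0 times for Id4, Lhx1 and Nanos2, against 66.2% of all promoters with at least 1. ETS-type letters (CCGGAAG, in 6.91% of promoters) were in none of the 6, and TATAAA (12.4%) was in that of Nanos2. These matches are descriptions of letters in the reference and not sites of binding.

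Expression was deposited as RPKM, read numbers scaled to gene length and library size, so levels of different genes can be set side by side. Low values fall in steps, from which 1 read was estimated at 0.0688 RPKM for a 1 kb transcript and the depth at 14500000 mapped reads (14200000 to 15100000 over the 12 libraries). The steps were read from 784 genes with 1 annotated transcript, and the gene lengths that the authors used are not given in the sources used here, so read numbers quoted below are approximate. The mRNA of M5 itself, Chrm5, was listed at 0.01 RPKM in 1 shNC library of each line and at 0 in the other 10 libraries, so it checks no label. TM4 shNC replicate 3 stood apart from its group. It differed from TM4 shNC replicates 1 and 2 by 0.64 and 0.642 (root mean square log2 difference over genes) and from the 3 shM5 libraries by only 0.202 to 0.257. The 6 stress genes Ddit3, Trib3, Chac1, Asns, Sesn2 and Atf3 summed to 997 and 998 RPKM in TM4 shNC replicates 1 and 2, to 274 in replicate 3 and to 236 to 256 in the shM5 libraries. In C18-4 cells the same sum was 755 and 737 in replicate 3 of shNC and shM5 and 391 to 402 in the other 4 libraries. The shM5 tests in TM4 cells are given with and without TM4 shNC replicate 3. Line differences are given over all 12 libraries, and within each hairpin only for genes where this is stated.

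**Figure D1:**
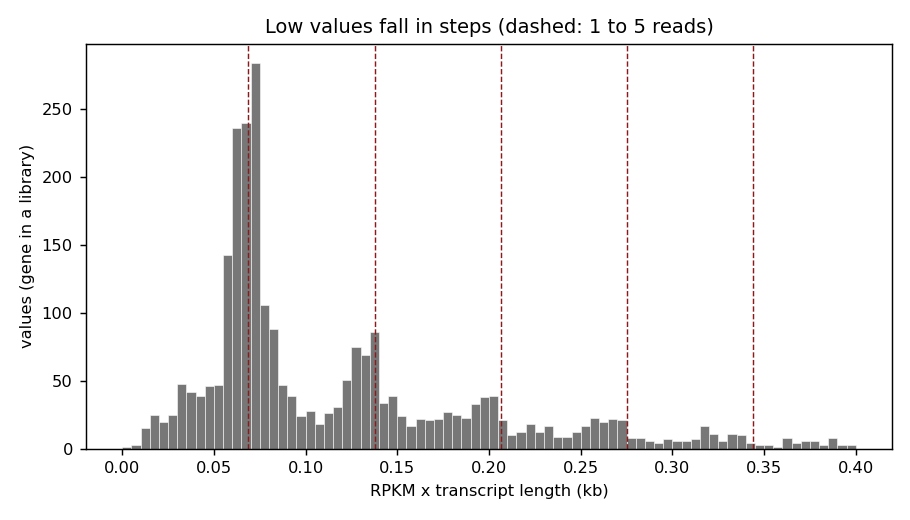
Number of values (a gene in a library) by RPKM multiplied by transcript length in kb, for genes with 1 annotated transcript and low values. Dashed lines mark 1 to 5 times the estimated value of 1 read, 0.0688, and the bars peak at the first line.

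The lines matched their labels only in part. Among 10 germ cell genes, 9 have a row, and their RPKM summed to 3.39 to 5.64 in C18-4 libraries and to 0.35 to 0.85 in TM4 libraries. Most of the C18-4 sum was Piwil2, a piRNA pathway protein, at 2.70 to 4.71 RPKM in C18-4 and 0.02 to 0.07 RPKM in TM4 cells. The germ cell markers Ddx4 and Dazl reached at most 0.05 and 0.04 RPKM in any C18-4 library. Of 15 Sertoli genes, 13 have a row, with sums of 78.0 to 91.8 RPKM in C18-4 and 28.3 to 67.3 RPKM in TM4 cells. Most of these sums was Wt1 in C18-4 and Kitl (18.4 to 49.5 RPKM) in TM4 cells. The genes did not share a direction. Of 8 tested, 3 were higher in C18-4 cells (Wt1, Clu and Rhox5), 4 were lower (Sox9, Kitl, Dhh and Inha) and 1 did not pass. Wt1, Clu, Rhox5, Sox9 and Dhh entered the test only through the line in which they were high. Wt1, a transcription factor that Sertoli cells need, was at 53.9 to 72.3 RPKM in C18-4 and at most 0.15 RPKM in TM4 cells. Sox9, a transcription factor of the Sertoli lineage, was at 1.11 to 1.74 RPKM in TM4 cells and at most 0.01 RPKM in C18-4 cells. Amh did not pass 0.19 RPKM in any library and Nr5a1 did not pass 0.02 RPKM. The 9 myoid and fibroblast genes summed to 434 to 595 RPKM in C18-4 and 1326 to 1882 RPKM in TM4 cells. Members did not all share that direction, as 2 of the 7 tested were higher in C18-4 cells and 5 were lower. Des and Col1a2 entered the test only through the line in which they were high. The Leydig list (0.61 to 1.16 RPKM in C18-4, 0.7 to 1.58 RPKM in TM4) was low in both lines. The macrophage list summed to 2.56 to 4.92 RPKM in C18-4 and 16.6 to 20.1 RPKM in TM4 cells, with Ptprc and Adgre1 at or near 0 in both lines. Its 2 tested genes went opposite ways, Cd68 higher in C18-4 cells (log2 difference 0.89) and Cd14 lower (-4.59). The names C18-4 and TM4 are therefore used below only as names of lines.

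**Figure D2:**
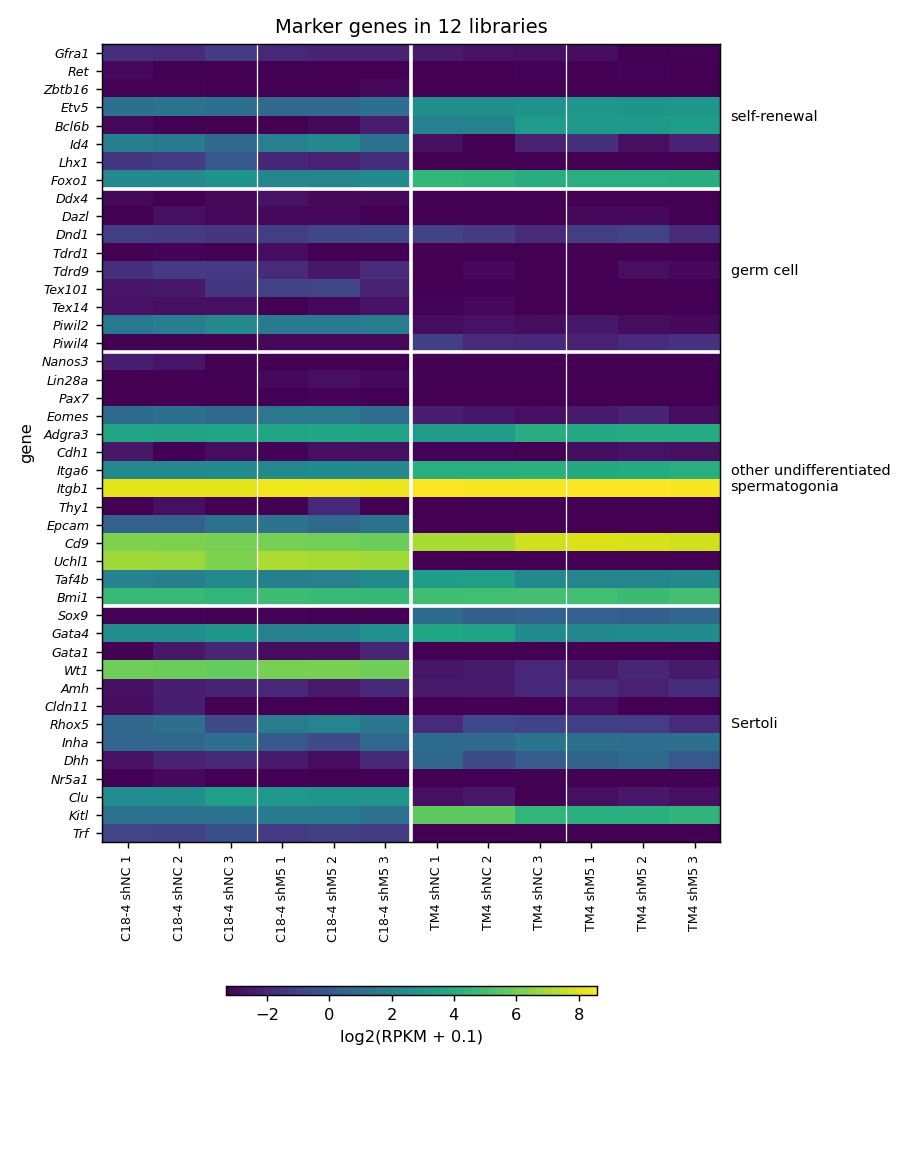
Heat map of log2(RPKM + 0.1) for the self-renewal genes, germ cell genes, other undifferentiated spermatogonia genes and Sertoli genes (rows) in the 12 libraries (columns, grouped by line and hairpin). Uchl1, Wt1 and Piwil2 are bright in the 6 C18-4 libraries, Sox9 is raised in the 6 TM4 libraries, and Ddx4, Dazl, Ret and Zbtb16 are dark throughout.

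Of the 8 self-renewal genes, 3 were higher in every C18-4 library than in every TM4 library (Id4, Gfra1 and Lhx1), 3 were lower (Foxo1, Etv5 and Bcl6b), and 2 could not be separated because they were at or near 0 in all 12 libraries (Ret and Zbtb16). Such a separation of the lines was common, since 52.8% of the 13161 genes averaging 0.1 RPKM or more showed it in either direction. In C18-4 cells the levels ran from Foxo1 (mean 5.05 RPKM) through Id4 (3.08), Etv5 (1.91), Lhx1 (0.318), Gfra1 (0.185) and Bcl6b (0.0217) to Zbtb16 (0.00667) and Ret (0.00333). Neighbours in that order overlapped over the 6 libraries for Foxo1 and Id4, for Id4 and Etv5, for Lhx1 and Gfra1, and among the 3 lowest, while Etv5 and Lhx1, and Gfra1 and Bcl6b, did not. In TM4 cells the order was Foxo1 (mean 19.1 RPKM), Bcl6b (7.35), Etv5 (6.75), Id4 (0.0833), Gfra1 (0.035) and Ret (0.00333), with Lhx1 and Zbtb16 listed at 0. Bcl6b and Etv5 overlapped there, and so did Id4, Gfra1 and Ret with one another.

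**Figure D3:**
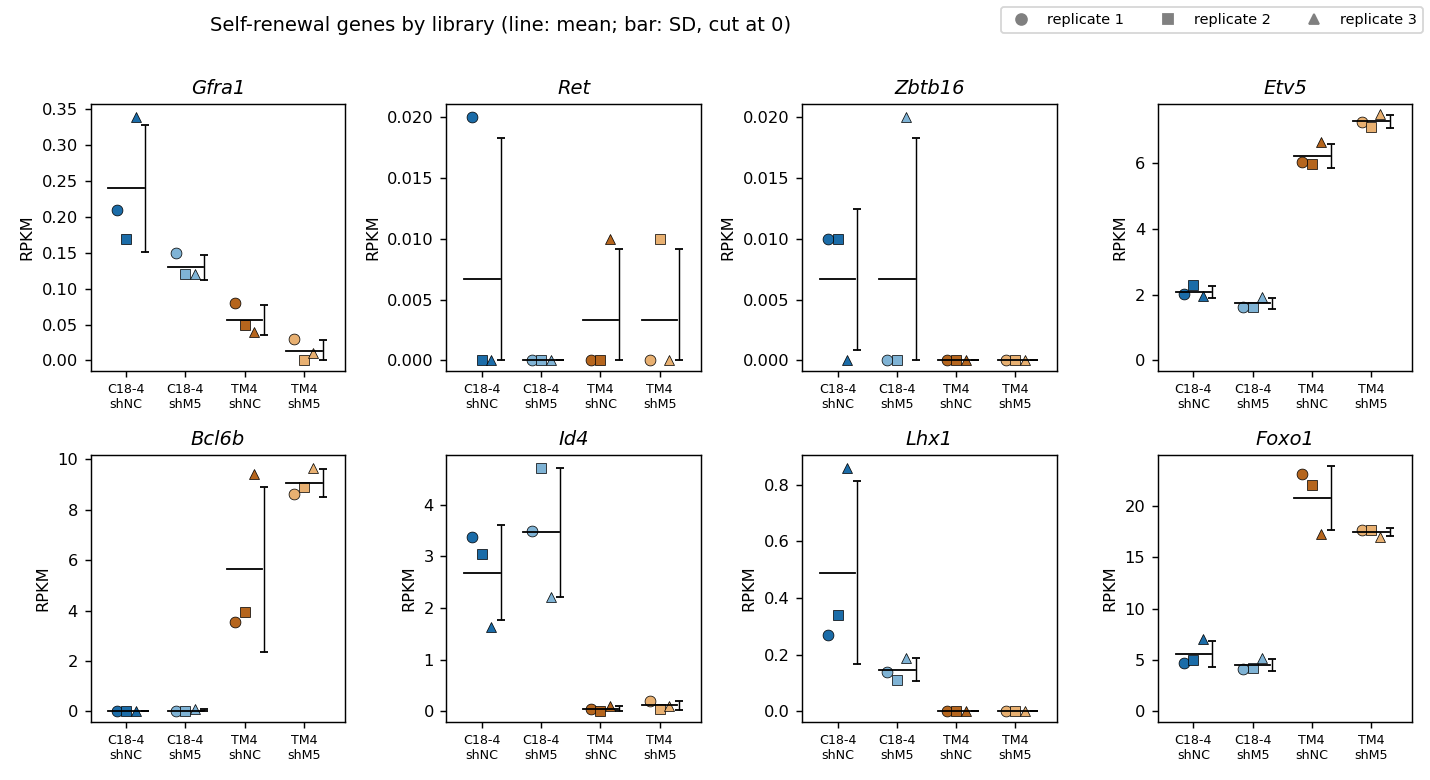
RPKM of each self-renewal gene in every library, by line and hairpin, with symbols for replicates 1 to 3, the mean of 3 libraries (horizontal line) and its SD (bar, cut at 0), each panel on its own linear scale. Etv5, Bcl6b and Foxo1 sit higher in TM4, Id4, Lhx1 and Gfra1 sit higher in C18-4, and Ret and Zbtb16 do not pass 0.02 RPKM anywhere.

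The receptor pair for GDNF was barely detected in the line labelled as stem cells. Gfra1 was 0.21, 0.17 and 0.34 RPKM in C18-4 shNC, 0.15, 0.12 and 0.12 RPKM in C18-4 shM5, 0.08, 0.05 and 0.04 RPKM in TM4 shNC, and 0.03, 0 and 0.01 RPKM in TM4 shM5. Every C18-4 library lay above every TM4 library, but the whole C18-4 signal corresponds to about 74 reads over 6 libraries, and the TM4 signal to about 14. The mean log2(RPKM + 0.1) was 1.06 higher in C18-4 cells, with p = 0.00216 in a two-sided exact permutation test of 6 against 6 libraries, the smallest p that this design allows. Ret, the kinase that GFRA1 engages, was listed at 0.02 RPKM in C18-4 shNC replicate 1, at 0.01 RPKM in TM4 shNC replicate 3 and TM4 shM5 replicate 2, and at 0 in the other 9 libraries. This is about 2 reads in each line, and the test did not separate the lines (exact permutation p = 1.0). A transcript at this depth that is listed at 0 may still be present below the level of 1 read, which for Ret is about 0.0126 RPKM. In bulk RNA, fewer cells that express a gene and less of its RNA per cell cannot be told apart.

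Among the GDNF-responsive regulators, Id4 and Lhx1 had more RNA in the C18-4 line. Id4 encodes a helix-loop-helix protein without a DNA-binding region, which blocks bHLH factors and marks the stem cell fraction of spermatogonia. It was 3.38, 3.04 and 1.64 RPKM in C18-4 shNC and 3.49, 4.71 and 2.21 RPKM in C18-4 shM5, and 0.04, 0 and 0.11 RPKM in TM4 shNC and 0.20, 0.04 and 0.11 RPKM in TM4 shM5. The lowest C18-4 library was thus well above the highest TM4 library. The difference was 4.13 on the log2 scale (SE 0.28, limma adjusted p = 6.65e-08). Replicate 3 was the lowest C18-4 library for Id4 under either hairpin, the same 2 libraries in which the stress genes summed highest, and any part of the stress state in this was not tested. Lhx1, a LIM homeobox factor, was 0.27, 0.34 and 0.86 RPKM in C18-4 shNC, 0.14, 0.11 and 0.19 RPKM in C18-4 shM5, and listed at 0 in all 6 TM4 libraries. Its C18-4 total is about 106 reads. Lines differed for Lhx1 by 1.86 on the log2(RPKM + 0.1) scale (two-sided exact permutation p = 0.00216, the smallest possible), with no fold given because TM4 is listed at 0.

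Etv5 and Bcl6b, which respond to GDNF in stem cells, were the reverse, with more RNA in the TM4 line. Etv5 encodes an ETS factor that Sertoli cells also express. Etv5 was 2.02, 2.29 and 1.96 RPKM in C18-4 shNC, 1.63, 1.64 and 1.94 RPKM in C18-4 shM5, 6.04, 5.98 and 6.63 RPKM in TM4 shNC, and 7.24, 7.09 and 7.49 RPKM in TM4 shM5. The spread within a group was small beside the gap between the lines. Etv5 was lower in C18-4 cells by a log2 difference of -1.77 (SE 0.08, adjusted p = 1.55e-09 in limma), or a TM4 mean 3.53 times that of C18-4. Bcl6b, a BTB zinc finger repressor, was 0.02, 0 and 0 RPKM in C18-4 shNC and 0, 0.02 and 0.09 RPKM in C18-4 shM5. In TM4 it was 3.56, 3.93 and 9.41 RPKM with shNC and 8.61, 8.90 and 9.66 RPKM with shM5. About 6 reads made up the whole C18-4 signal of Bcl6b, against about 2187 in TM4, so the fitted log2 difference of -5.87 (SE 0.24, limma adjusted p = 5.57e-10) depends on the value of 0.1 added before taking logs.

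Foxo1, a forkhead factor that AKT keeps out of the nucleus and that marks spermatogonial stem cells when nuclear, was the most abundant of the 8 genes in each line. It was 4.76, 4.97 and 7.01 RPKM in C18-4 shNC, 4.15, 4.20 and 5.23 RPKM in C18-4 shM5, 23.1, 22.0 and 17.2 RPKM in TM4 shNC, and 17.7, 17.7 and 17.0 RPKM in TM4 shM5. All TM4 libraries exceeded all C18-4 libraries. The log2 difference was -1.91 (SE 0.11, limma adjusted p = 2.33e-08), with a TM4 mean 3.78 times that of C18-4. Zbtb16, the PLZF repressor that defines undifferentiated spermatogonia, was listed at 0.01 RPKM in C18-4 shNC replicates 1 and 2, at 0.02 RPKM in C18-4 shM5 replicate 3 and at 0 elsewhere. With about 3 reads in all C18-4 libraries, the lines were not separated (exact permutation p = 0.182).

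The 4 genes abundant enough for the test across all genes (Etv5, Bcl6b, Id4 and Foxo1) each passed it at an adjusted p below 0.05. Between the lines 73.0% of the 11773 genes tested passed, 43.9% with more RNA in C18-4 and 29.2% with more in TM4, so that a call is near the ordinary case here. Bcl6b and Id4 entered the test only through the line in which they were high, and their calls follow from that. Within the shNC libraries alone the log2 differences were -1.53 for Etv5, -5.61 for Bcl6b, 4.22 for Id4 and -1.89 for Foxo1, and within the shM5 libraries alone they were -2.01, -6.12, 4.05 and -1.93. All 8 values passed the same threshold. The median of all genes tested was 0.14 higher in C18-4 cells, a shift that quantile normalization reduced to -0.02 without turning the direction of any of the 4.

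Relatives in the same gene families were also split between the lines. Of 20 relatives listed, 18 have a row and 12 were tested, of which 7 were higher in C18-4, 4 were lower and 1 (Foxo4, log2 difference 0.14) did not pass, or 91.7% called against 73.0% of all genes. Of the 12, Etv1, Foxo6 and Lhx2 averaged under 0.5 RPKM in the other line and entered the test only through the line in which they were high, so their calls follow from that. The other 9 gave 5 higher and 3 lower in C18-4 cells. Within the ETS subfamily of Etv5 the direction was shared, with Etv4 at -1.63 and Etv1 at -6.58 on the log2 scale. Etv1 had a mean of 9.91 RPKM in TM4 cells and was at most 0.01 RPKM in C18-4 cells. Bcl6, the closest relative of Bcl6b, was also lower in C18-4 (-3.47), at 0.87 to 1.81 RPKM against 10.3 to 22.3 RPKM in TM4. Inhibitors related to Id4 shared its direction, with log2 differences of 1.05 for Id1, 2.07 for Id2 and 1.78 for Id3, and were far more abundant than Id4 in both lines, at means of 98.8, 65.9 and 88.4 RPKM in C18-4 and 48.5, 15.6 and 25.6 RPKM in TM4 cells. Limma adjusted p-values for the 3 ran from 3.06e-10 (Id3) to 0.000133 (Id1).

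The forkhead and LIM families gave further contrasts. Foxo3 followed Foxo1 at -0.95, while Foxo6 was at 7.60 to 9.30 RPKM in C18-4 and at most 0.08 RPKM in TM4 cells, a log2 difference of 5.88. Lhx2 was 5.59 to 9.69 RPKM in C18-4 and at most 0.07 RPKM in TM4 cells (log2 difference 6.13). Lhx5 (0.37 to 0.65 RPKM) and Lhx9 (0.69 to 1.13 RPKM) were found in C18-4 and listed at 0 in TM4 cells, as Lhx1 was. Where Sall4 and Nanos2 have no row, their relatives Sall2 (log2 difference 1.52, mean 7.86 RPKM in C18-4 and 2.72 RPKM in TM4) and Nanos1 (0.82, mean 3.21 and 1.83 RPKM) were higher in C18-4 cells, and Sall3 was 0.79 to 1.32 RPKM in C18-4 and at most 0.01 RPKM in TM4 cells. The GDNF-family co-receptors Gfra2 (at most 0.08 RPKM) and Gfra3 (0) were no better represented than Gfra1.

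**Figure D4:**
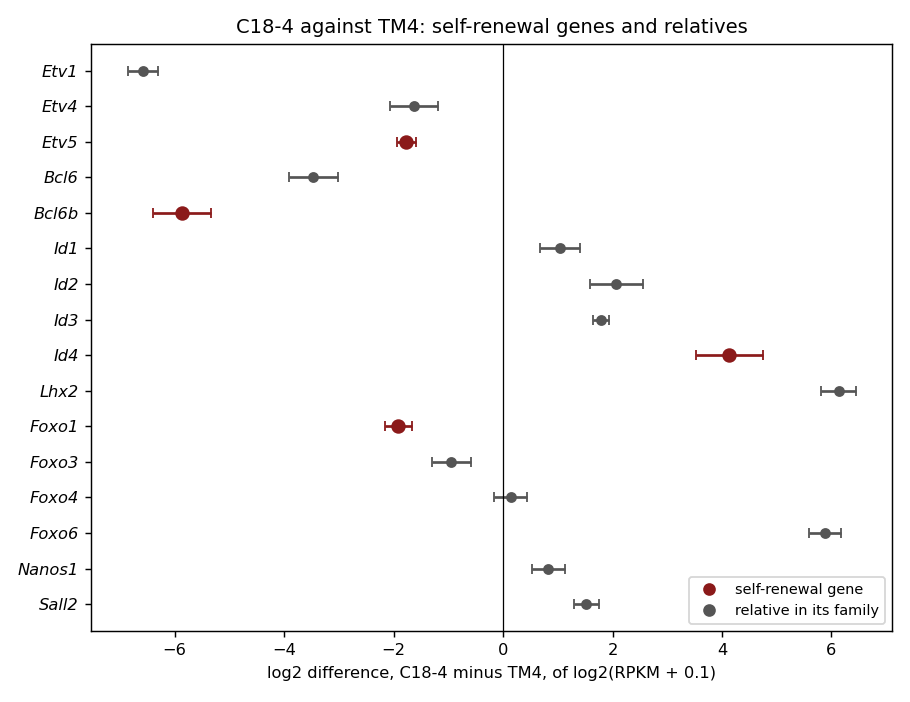
Difference between C18-4 and TM4 in log2(RPKM + 0.1), 6 libraries each, with 95% intervals, for 4 self-renewal genes (red) and 12 relatives (grey) abundant enough to test. Points right of 0 have more RNA in C18-4 cells: Id4 lies at 4.13 with its relatives at 1.05 to 2.07, and the Etv and Bcl6 genes lie left of 0.

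Of 15 niche ligands and receptors, 11 were tested, 2 higher and 8 lower in C18-4 cells, with a median of -0.52 (0.14 over all genes). Split by role, 6 of 7 tested ligands were lower in C18-4 cells and 1 (Csf1) was higher, and of 4 tested receptors 2 were lower, 1 (Lifr) was higher and 1 did not pass. Gdnf was 0.62, 0.74 and 1.14 RPKM in C18-4 shNC and 0.54, 0.36 and 0.63 RPKM in C18-4 shM5, against 9.67, 8.90 and 4.59 RPKM in TM4 shNC and 2.75, 2.52 and 3.42 RPKM in TM4 shM5. All TM4 libraries were above all C18-4 libraries for Gdnf (log2 difference -2.67, SE 0.21, limma adjusted p = 3.19e-07). Kitl, the KIT ligand, was 2.06 to 2.93 RPKM in C18-4 and 18.4 to 49.5 RPKM in TM4 (log2 difference -3.47), and the chemokine gene Cxcl12 was at most 0.03 RPKM in C18-4 and 12.5 to 16.8 RPKM in TM4 (-7.06), a call that follows from the filter. Csf1, a growth factor gene for stem cells and macrophages, was the most abundant of these ligands and ran the other way, at 91.9 to 126 RPKM in C18-4 and 48.3 to 98.3 RPKM in TM4 (0.68). Within the shNC libraries alone 1 of the 11 was higher and 6 were lower, and Csf1 did not pass (0.42, limma adjusted p = 0.117). Within the shM5 libraries alone 2 were higher and 7 lower, and Csf1 passed (0.95, limma adjusted p = 0.00308). The FGF receptor gene Fgfr1 was lower in C18-4 cells (-3.67) and the LIF receptor gene Lifr higher (1.34).

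Of 15 GDNF signalling genes apart from Gfra1 and Ret, 10 were tested, 2 higher and 4 lower in C18-4, with a median of -0.15. These 10 are 2 ligands, the surface molecule gene Ncam1 and 7 adaptors and kinases that act after RET. Of the ligands, Gdnf was lower in C18-4 cells, as above, and Nrtn did not pass (log2 difference -0.0022). Ncam1 was lower (-0.39). Among the adaptors and kinases, the docking protein gene Gab1 (1.77) and the adaptor gene Grb2 (0.66) were higher in C18-4 cells, Frs2 (-0.76) and Shc1 (-0.46) were lower, and the SRC-family kinase genes Src, Fyn and Yes1 (0.16, -0.11 and -0.19) did not pass. The call of Shc1 rested on the shM5 libraries (-0.81, limma adjusted p = 0.00241). Within the shNC libraries alone Shc1 was at -0.11 and did not pass (limma adjusted p = 0.615). Src passed within the shM5 libraries alone (0.31, limma adjusted p = 0.0396). Among 12 PI3K, AKT and FOXO genes other than Foxo1, 3 were higher, 5 were lower and 4 did not pass (median -0.06), with Pik3r1 (-1.05), which encodes a regulatory subunit of PI3K, and Foxo3 (-0.95) on the lower side. Partners of the self-renewal proteins were close to even, with 1 of 6 tested higher (Tcf3, 0.80) and 1 lower (Tcf4, -0.61). The E proteins encoded by Tcf3 and Tcf4 pair with bHLH factors and are bound by ID proteins.

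Other GDNF-responsive genes were as mixed as the 4 above. Of 8, 4 were tested, 1 higher, 2 lower and 1 (Mycn, 0.17) not passing. Pou3f1, a POU factor needed by cultured stem cells, was 9.39 to 13.5 RPKM in the 6 C18-4 libraries and listed at 0 in TM4 cells. Egr3, an immediate early zinc finger gene, was at most 0.11 RPKM in C18-4 and 0.48 to 4.19 RPKM in TM4 cells (log2 difference -3.49). Both entered the test only through the line in which they were high. For markers of undifferentiated spermatogonia other than the 10 genes, 9 of 17 were tested, 3 higher and 5 lower in C18-4 cells, with a median of -0.24. The 5 lower were the integrin gene Itga6 (log2 difference -1.73), Cd9 (-1.43), Taf4b (-0.60), the integrin gene Itgb1 (-0.30) and Bmi1 (-0.24). Within the shNC libraries alone 5 were lower as well, but within the shM5 libraries alone only 3 were. Taf4b (-0.19, limma adjusted p = 0.567) and Bmi1 (-0.18, limma adjusted p = 0.127) did not pass there. Taf4b was 10.2 and 10.3 RPKM in TM4 shNC replicates 1 and 2, 4.73 RPKM in replicate 3 and 4.25 to 4.87 RPKM in TM4 shM5. The 3 higher, Uchl1, Epcam and Eomes, entered the test only through the C18-4 line. Uchl1, a ubiquitin hydrolase abundant in spermatogonia, was 76.8 to 140 RPKM in C18-4 and listed at 0 in TM4 cells, and Epcam was 1.15 to 2.32 RPKM in C18-4 and 0 in TM4. Eomes, a T-box factor of a stem cell subset, was 1.59 to 2.58 RPKM in C18-4 and at most 0.12 RPKM in TM4 cells. In contrast Nanos3, Lin28a and Pax7 stayed at or below 0.10, 0.04 and 0.01 RPKM in C18-4 cells. Of 7 genes of differentiating spermatogonia, Kit, Stra8 and Sohlh1 were listed at 0 in all 12 libraries, but not all were absent. The 7 summed to 48.4 to 62.2 RPKM in C18-4 and 121 to 162 RPKM in TM4 cells. The 2 tested, Rarg (log2 difference -0.68) and Ccnd2 (-2.29), were both lower in C18-4 cells.

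With shM5 in C18-4 cells, none of the 3 genes abundant enough to test passed. They had log2 differences of -0.26 for Etv5 (95% interval -0.61 to 0.10, limma adjusted p = 0.582), -0.28 for Foxo1 (-0.70 to 0.14, adjusted p = 0.609) and 0.36 for Id4 (-0.46 to 1.17, adjusted p = 0.777). Across all genes 0.586% of 11611 passed. In this limma fit 0 of the 3 genes had an unadjusted p below 0.05. Same-numbered C18-4 libraries deviated together, though replicates 1 and 2 did so across numbers as well. With the replicate number as a block 11.9% of genes passed. None of the 3 did, with limma adjusted p-values of 0.268 for Etv5, 0.0808 for Foxo1 and 0.12 for Id4 (unadjusted 0.11, 0.0146 and 0.029). The labels do not say that same-numbered libraries are pairs. Set side by side by number, Foxo1 was lower with shM5 for all 3 (4.76 to 4.15, 4.97 to 4.20 and 7.01 to 5.23 RPKM). Id4 was higher for all 3 (3.38 to 3.49, 3.04 to 4.71 and 1.64 to 2.21 RPKM). Etv5 was lower for all 3 (2.02 to 1.63, 2.29 to 1.64 and 1.96 to 1.94 RPKM). The share of all genes that moved in the same direction for all 3 numbers is not given here.

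For 3 genes all 3 shM5 libraries of C18-4 lay below all 3 shNC libraries, namely Etv5, Gfra1 and Lhx1, a pattern that 9.48% of 12861 genes showed in that direction. The margin was narrow for Etv5 (1.96 against 1.94 RPKM) and for Gfra1 (0.17 against 0.15 RPKM). Lhx1 had the widest relative gap, with a mean of 0.49 RPKM ± 0.322 (SD, n = 3) with shNC and 0.147 RPKM ± 0.0404 (SD, n = 3) with shM5. The highest of these, 0.86 RPKM in shNC replicate 3, is in a library with a stress sum of 755 RPKM, whereas shM5 replicate 3, with a stress sum of 737 RPKM, was at 0.19 RPKM. Gfra1 and Lhx1 were too low for the filter. When every gene was kept, the log2 differences were -1.14 for Lhx1 (limma adjusted p = 0.334, and 0.12 with the replicate block) and -0.54 for Gfra1 (adjusted p = 0.458, and 0.241 with the block). In reads, Lhx1 went from about 15.4, 18.7 and 47.1 to about 7.9, 6.0 and 10.5 per library.

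In TM4 cells 0.0% of 11016 genes passed in limma, although 2866 had an unadjusted p below 0.05, and the 3 genes tested shared this outcome. The log2 difference between shM5 and shNC was 0.82 for Bcl6b (95% interval -0.04 to 1.67, limma adjusted p = 0.192), 0.22 for Etv5 (0.0044 to 0.44, adjusted p = 0.192) and -0.24 for Foxo1 (-0.54 to 0.06, adjusted p = 0.22). The shNC libraries of TM4 did not hold together for Bcl6b and Foxo1. Replicates 1 and 2 were at 3.56 and 3.93 RPKM for Bcl6b and 23.1 and 22.0 RPKM for Foxo1, and replicate 3 was at 9.41 and 17.2 RPKM, among the shM5 libraries (8.61 to 9.66 and 17.0 to 17.7 RPKM). Etv5 was the gene whose groups did not overlap in the higher direction, while 25.6% of 12218 genes averaging 0.1 RPKM or more did not overlap in either direction. Gfra1 did not overlap in the lower direction (0.04 to 0.08 RPKM against 0 to 0.03 RPKM), but it averaged under 0.1 RPKM in TM4 cells and is not among the genes of that share. Gdnf also did not overlap, at 4.59 to 9.67 RPKM with shNC and 2.52 to 3.42 RPKM with shM5.

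Without TM4 shNC replicate 3, all 3 genes passed, Bcl6b with a log2 difference of 1.25 (limma adjusted p = 1.17e-05), Etv5 with 0.27 (adjusted p = 0.00942) and Foxo1 with -0.37 (adjusted p = 0.000487). In that fit 67.4% of 11026 genes passed, so the 3 genes did what most genes did once this library was out. The remaining shNC libraries, replicates 1 and 2, are those with stress sums of 997 and 998 RPKM against 236 to 256 RPKM in shM5. The part of the stress state in the differences of Bcl6b, Etv5 and Foxo1 was not tested, and with these 2 libraries as the only controls it cannot be told apart from that of shM5.

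**Figure D5:**
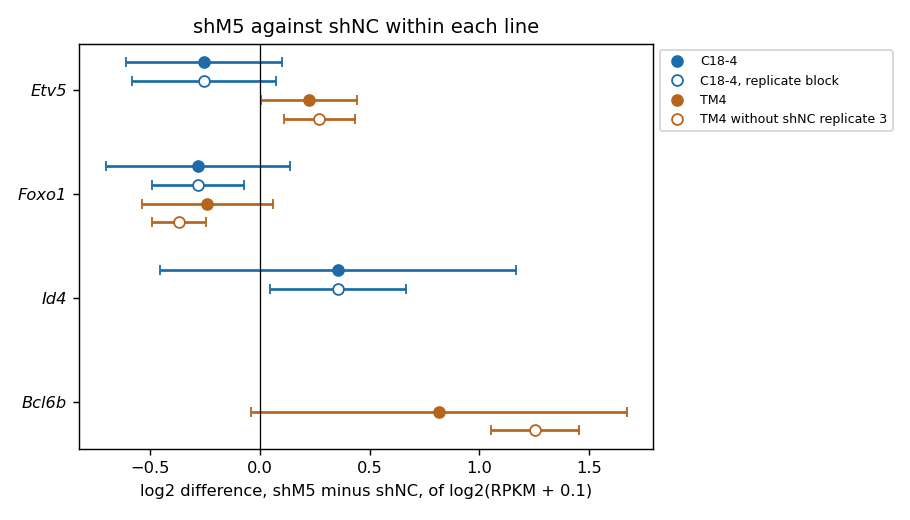
Difference between shM5 and shNC in log2(RPKM + 0.1) with 95% intervals within C18-4 (blue) and TM4 (brown), open symbols giving the fit with a replicate block in C18-4 and the fit without shNC replicate 3 in TM4. The Bcl6b estimate in TM4 moves from 0.82 to 1.25 when that library is left out and its interval narrows, and genes below the filter in a line have no symbol there.

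Whether shM5 acted differently in the lines was tested as an interaction, the shM5 effect in C18-4 minus that in TM4. It was -0.48 for Etv5 (95% interval -0.83 to -0.13, limma adjusted p = 0.193), with every C18-4 shM5 library below and every TM4 shM5 library above its own controls. The other values were -0.51 for Bcl6b (adjusted p = 0.523), -0.17 for Id4 (adjusted p = 0.863) and -0.04 for Foxo1 (adjusted p = 0.917). None passed, and 0.102% of all genes did. Without TM4 shNC replicate 3, Etv5 (-0.53, limma adjusted p = 0.0208) and Bcl6b (-0.94, adjusted p = 0.0434) passed, as did 38.0% of all genes. The interval of Bcl6b rests on TM4, as its C18-4 values were at most 0.09 RPKM.

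Whether the GDNF signalling genes and the relatives passed with shM5 depended on the fit. With shM5 in C18-4 cells none of the 10 tested GDNF signalling genes and none of the 14 tested relatives passed in limma without a block, with 3 and 2 of them under an unadjusted p of 0.05 and medians of -0.06 and -0.13 (-0.0024 over all genes). The lowest of their adjusted p-values was 0.0637, for Ncam1 at -0.42. With the replicate block, where 11.9% of all genes passed, 3 of the 10 signalling genes did, Yes1 (log2 difference -0.50, limma adjusted p = 0.00329), Ncam1 (-0.42, adjusted p = 0.00568) and Frs2 (0.32, adjusted p = 0.0189). So did 3 of the 14 relatives, Lhx2 (-0.47, limma adjusted p = 0.0133), Id1 (-0.27, adjusted p = 0.0204) and Id3 (-0.26, adjusted p = 0.0338). All 6 also passed when replicate 3 of both groups was left out, as did 26.2% of all genes. In that fit 6 of the 10 signalling genes passed, with Gab1, Src and Nrtn added, and the same 3 of the 14 relatives. In TM4 cells 0 of 10 signalling genes and 0 of 10 relatives passed in limma, with 6 and 4 under an unadjusted p of 0.05 and medians of -0.13 and 0.39 (0.04 over all genes). Without TM4 shNC replicate 3, 8 of 10 signalling genes (3 higher and 5 lower with shM5) and 9 of 10 relatives (7 higher and 2 lower) passed, beside 67.4% of all genes. Gdnf (log2 difference -1.66, limma adjusted p = 2.57e-05) and Fyn (-1.41, adjusted p = 9.39e-07) were lower with shM5 in that fit, and Shc1 (0.83, adjusted p = 4.33e-06) was higher. Among the relatives Bcl6 was lower (-0.92, limma adjusted p = 7.50e-05) and Etv4 higher (0.60, adjusted p = 8.96e-05).

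Foxo1 and Etv5 were at 0.5 RPKM or more in both lines, and the genes most like them were sought over the 12 libraries after each line's mean was removed, among 10008 genes. For Foxo1 these were Gtf2i (Pearson r 0.986), Zeb1 (0.979) and Grina (0.975), and for Etv5 they were Metrn (0.919), Fam120a (0.893) and Fmnl2 (0.886). The Foxo1 deviations follow the libraries that stood apart, high in TM4 shNC replicates 1 and 2 and in C18-4 shNC replicate 3, so genes that share that pattern share the libraries, and the 12 points are 4 groups of 3. These values are a description of likeness in these libraries only.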

How the data were processed

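RNA was measured in 12 libraries, 3 for each of 4 groups taken from the sample labels. The authors captured poly(A) RNA on oligo(dT) beads, and the submitters' processing notes name the Illumina HiSeq 2500 and SOAPaligner 2.20. The genome build and gene lengths behind the values are not given in the sources used here. The deposited values are RPKM with 2 decimals, which the authors computed from reads, gene length and library size. The authors' own test used reads, which RPKM does not carry.

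Here log2(RPKM + 0.1) was fitted with limma 3.58.1 (R 4.3.3, eBayes with a trend) for genes averaging 0.5 RPKM or more, 11773 over both lines, 11611 in C18-4 and 11016 in TM4 cells. This scale understates the change of low genes. p-values were adjusted by Benjamini-Hochberg over all genes tested, and genes were called below 0.05. The lines were compared in 1 fit of 4 groups, which also gave the interaction, and shM5 in a fit per line. Genes below the filter were compared between lines with a two-sided exact permutation test over libraries. With 3 against 3 libraries this test cannot go below 0.1 and was not used. The rest was done in scipy 1.17.1, pandas 2.3.3 and numpy 2.4.6 under Python 3.11.15. The fit was also run on simulated data in which libraries varied independently. That run cannot show how the fit behaves where libraries deviate together, as these did. Read numbers were estimated from RPKM, the value of 1 read and the longest GENCODE transcript, and cover counting only.

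The genes and pathway lists were chosen with earlier results of these data known. Beside the 10 genes, the text names up to 4 called genes per list with the largest differences, relatives and direct partners of the genes, and the 3 genes most alike. Some genes of the lists are not reported here and were left out of their counts. Lif and other listed genes are covered by counts. Cell markers, stress genes and genes listed at 0 were named after their values were seen. So were Csf1, Lifr, Mycn, Itga6, Cd9, Taf4b, Itgb1, Bmi1, Eomes, Lhx5, Lhx9 and Sall3.

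Same-numbered C18-4 libraries deviated together from their group means (correlations across genes 0.439, 0.409 and 0.631), so the replicate number was used as a block in an alternative. Replicates 1 and 2 also correlated across numbers, shNC 1 with shM5 2 at 0.341 and shNC 2 with shM5 1 at 0.345. These values therefore set replicate 3 apart but do not show that replicates 1 and 2 are pairs. In TM4 cells the same-numbered correlations were 0.073, 0.049 and 0.127, which does not pair the libraries. Other alternatives were pseudocounts, no filter, a stricter filter on low values, quantile normalization, the study's threshold and leaving out libraries.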

Additional observations from a re-analysis of the deposited data

How the results depend on the processing

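The 4 line differences of Etv5, Bcl6b, Id4 and Foxo1 kept their direction and stayed past the threshold under every alternative that tested them. This held in all libraries and within either hairpin. Id4 fell below the stricter filter on low values and was not tested there. The calls of Bcl6b and Id4 follow from the filter, as stated above. Without TM4 shNC replicate 3, the number of the genes called for shM5 in TM4 went from 0 to 3, and the number called for the interaction from 0 to 2. Leaving out each library in turn gave 0 to 3 and 0 to 2. Leaving out TM4 replicate 3 of both groups also gave 3, and leaving out C18-4 replicate 3 of both groups with TM4 shNC replicate 3 gave 2 for the interaction. These last settings were chosen after seeing the data. The replicate block raised the number of genes called for shM5 in C18-4 cells from 68 to 1386 and changed no call of a self-renewal gene. Interaction values near 0 changed sign without passing the test. Bcl6b went to 0.28 with a pseudocount of 0.01. Id4 (-0.17) went to 0.18 with a pseudocount of 1, and ranged from -0.48 (without C18-4 shNC replicate 3) to 0.11 (without C18-4 shM5 replicate 3) with each library left out, turning positive for 4 libraries. Foxo1 (-0.04) ranged from -0.15 (without C18-4 shM5 replicate 3) to 0.13 (without C18-4 shNC replicate 3), turned positive for 4 libraries, and was 0.15 without C18-4 replicate 3 of both groups and TM4 shNC replicate 3. The line difference of Ret, -0.0020, ranged from -0.046 to 0.016 and was reversed at 0.0068 and 0.016. The cause of these changes was not tested. Under the study's stricter threshold, 8 line calls of genes named by largest difference, as relatives or as partners were lost (Ncam1, Shc1, Frs2, Grb2, Foxo3, Nanos1, Tcf3 and Tcf4). The line calls of Csf1 (log2 difference 0.68), Taf4b (-0.60), Itgb1 (-0.30) and Bmi1 (-0.24), named beside them, were lost too. Depth limits Ret and Zbtb16 to at most about 2 reads per library, Bcl6b in C18-4 cells to at most about 4.4, Gfra1 to at most about 22.5 and Lhx1 to at most about 47.1.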
